A study of Mus musculus with 22 samples.

Results

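The axon guidance ligand and receptor genes examined here were the protein coding genes of the count table whose symbols name an ephrin, an Eph receptor, a class 3 to 7 semaphorin, a plexin, a neuropilin, a Slit, a Robo, a netrin (Ntn1 to Ntn5), an Unc5 receptor or Dcc. There were 67 such genes among 18220 protein coding genes and 29367 genes in all. Of these, 34 encode ligands and 33 encode receptors or co-receptors. By family there were 8 ephrins, 13 Eph receptors, 7 secreted semaphorins of class 3, 13 membrane semaphorins of classes 4 to 7, 9 plexins, 2 neuropilins, 3 Slits, 4 Robos, 3 netrins and 5 netrin receptors.

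Guidance ligands are secreted or membrane-bound proteins that steer growing axons and migrating cells by attraction or repulsion, and their receptors act on the cytoskeleton of the growth cone. Ephrins signal to Eph receptor tyrosine kinases on touching cells, semaphorins signal to plexins with or without a neuropilin, Slits signal to Robos, and netrins signal to Dcc and to the Unc5 receptors. In the developing visual system these proteins guide retinal ganglion cell axons out of the eye and across the optic chiasm, and several of them are also made by glia and vessel cells of the adult nerve.

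Astrocyte ribosomes were tagged in mice with the Rpl22 HA allele (B6J.129(Cg)-Rpl22tm1.1Psam/SjJ) crossed to a Cre line, Tg (GFAP-Cre) 73.12Mvs/J on the B6.Cg background. Cre under a mouse GFAP promoter switches on HA-tagged Rpl22, and ribosome-bound mRNA can then be pulled down with an antibody against HA. All mice were Rpl22 HA/HA and Cre+, are labelled WT in genotype, and were 3 to 4 months old. They received a microbead injection that raises intraocular pressure (IOP) in 1 eye. The optic nerve head (ONH, unmyelinated) and an equal length of the adjoining myelinated optic nerve proper (ONP) were dissected 7 or 30 days later. This gave 7 ONH and 7 ONP libraries at 30 days and 4 ONH and 4 ONP libraries at 7 days. Each library is a pool of 4 mice, 2 male and 2 female, and the ONH and ONP of a pool came from the same mice. Uninjected mice were not analysed here, so no value below is a change from the healthy nerve.

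Total counts ran from 16292489 to 33307092 per library. Levels are CPM, the counts of a gene relative to the total counts of its library after that total was scaled by TMM factors. They are divided by the kb of exon wherever 2 genes are compared. All 10 astrocyte markers were detected, and their summed level was between 13965 and 33911 CPM over the 22 libraries. Markers of other cells were present too and did not have the same level in the groups. The sum of 10 oligodendrocyte markers was 13405 to 40379.7 CPM in ONH and 25674 to 84787 CPM in ONP at 30 days. At 7 days it was 18774 to 36288 CPM in ONH and 81039 to 108852 CPM in ONP. The astrocyte sum in ONP was 15619 to 21859 CPM at 7 days, below the oligodendrocyte sum in every library. At 30 days in ONP the medians of the astrocyte and oligodendrocyte sums were 29007 and 53913 CPM. In ONH their ranges overlapped at both days. These sums hold different genes and do not measure shares of cells, and enrichment for astrocytes was not tested here. The sum of 6 photoreceptor markers was highest in 30 day ONH replicate 4 (2236 CPM) and in the 7 day ONH libraries 5 and 6 (1373 and 5809 CPM). The 5 pigment cell markers summed to 46.3 to 717 CPM in ONH against 1.63 to 7.16 CPM in ONP. In bulk libraries fewer cells of a type and less RNA per cell cannot be told apart.

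Sema3b, a secreted class 3 semaphorin that repels axons through neuropilins, was the most abundant member per kb of exon in all 4 groups. Its mean level was 153 ± 38.8 CPM per kb in ONH and 91.8 ± 26.8 CPM per kb in ONP at 30 days (SD, n = 7 libraries each). The 7 day values were 172 ± 51.4 and 123 ± 16.9 CPM per kb (SD, n = 4 each). Next in ONH came Efna1, a GPI-anchored ephrin, at 40.4 ± 3.83 CPM per kb at 30 days, followed by the plexin receptor Plxnb2 at 21.5 ± 3.90 CPM per kb and the transmembrane semaphorin Sema4d at 19.5 ± 7.29 CPM per kb. The last 2 differed by less than their SD, and their order depends on the length used. The longest transcript of Sema4d has 4482 bases and its exon union 7679, against 6497 and 7720 for Plxnb2. With the longest transcript as length Sema4d stood above Plxnb2 in 30 day ONH, and its lead over Efna1 in 30 day ONP was wider. In ONP the order was another one. At 30 days Sema4d (46.9 ± 13.2 CPM per kb), Efna1 (43.5 ± 5.41 CPM per kb) and the transmembrane ephrin Efnb3 (36.6 ± 13.7 CPM per kb) followed Sema3b, and neighbours among these 3 differed by less than the larger of their SDs. At 7 days Sema4d (69.3 ± 15.2 CPM per kb) was followed by Efnb3 (48.8 ± 6.90 CPM per kb) and Efna1 (40.7 ± 5.34 CPM per kb). In all, 32 members had a mean over 1 CPM per kb in ONH and 29 in ONP at 30 days, and 36 and 33 at 7 days. At the low end, 48 members had more than 3 counts in every library and 19 did not. Epha8 and the Robo3 receptor were at or under 3 counts in 19 of 22 libraries each, and the netrin receptor Unc5d in 15.

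**Figure D1:**
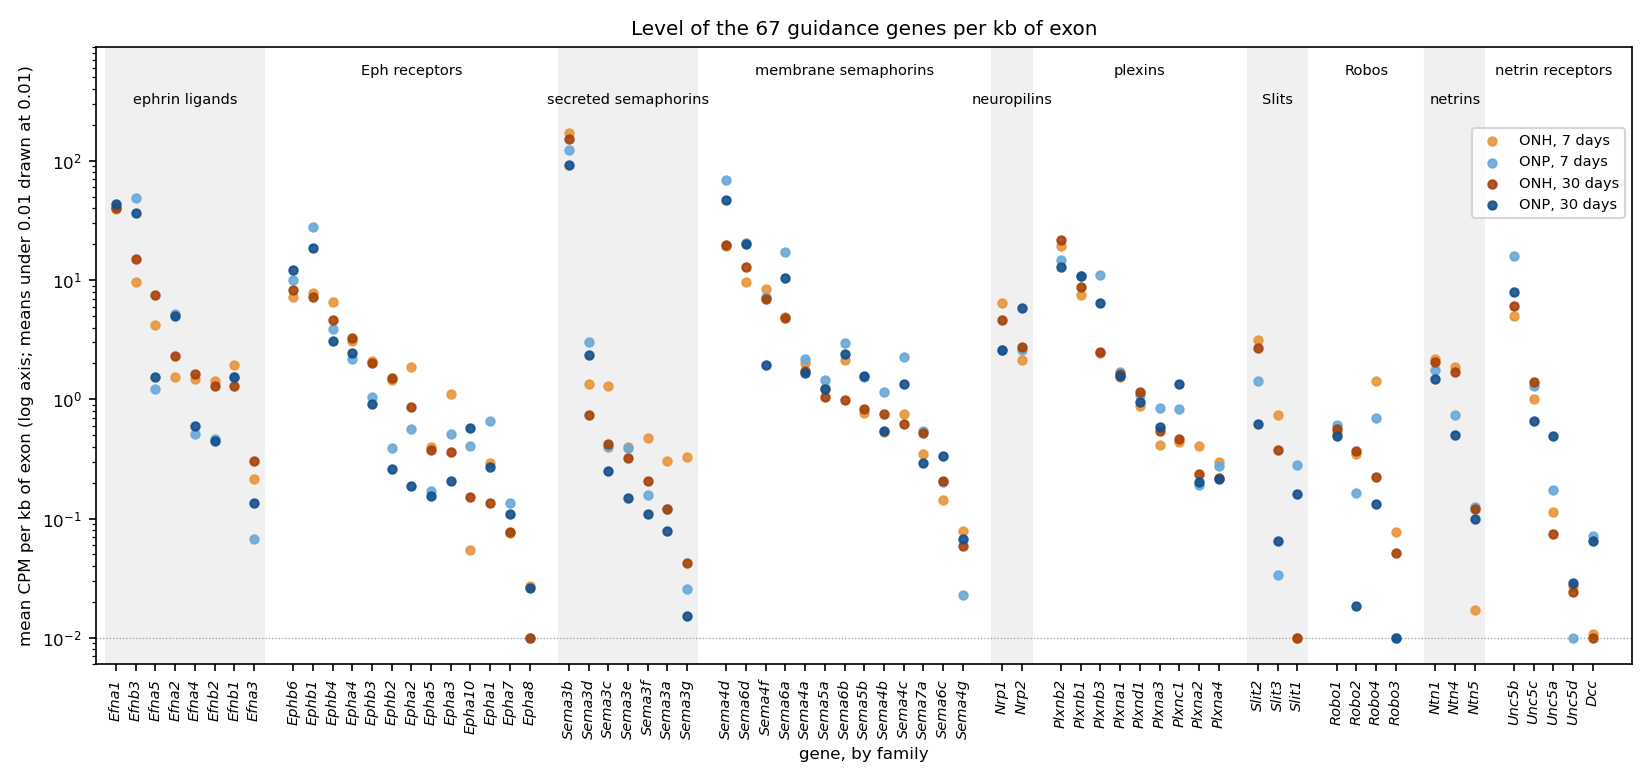
Mean level of each of the 67 guidance genes in CPM per kb of exon (vertical axis, log scale), by family, with 1 point per region and day (7 libraries at 30 days, 4 at 7 days). Sema3b stands highest in every group (91.8 to 172 CPM per kb), and within most families the members span more than an order of magnitude.

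The first question was which guidance genes differ between the pulled-down, ribosome-bound RNA of ONH and ONP after IOP elevation. At 30 days 59 members had enough counts to be tested and 34 had an adjusted p under 0.05 (from here on, "called"), 18 higher and 16 lower in ONH. In the same test 41.8% of all 15133 genes tested were called (21.8% higher and 20.0% lower). At 7 days 58 members were tested and 15 were called, 7 higher and 8 lower in ONH, and 13.2% of all 14752 genes tested were called (6.34% higher and 6.81% lower). The median log2 fold change (log2FC, ONH over ONP) of the tested members was 0.24 at 30 days and -0.10 at 7 days, beside -0.01 and 0.07 for all genes. Of the 57 members tested at both days 49 had the same sign. The 14 members called at both days, 41.2% of those called at 30 days and 93.3% of those called at 7 days, had the same direction each time. The same shares over all genes were not computed, so this likeness of the days is not shown to be particular to the members. Efna5, Efnb2, Ephb2, Epha2, Slit2, Slit3 and Nrp1 were higher in ONH, and Efnb3, Efna2, Ephb1, Sema4d, Sema6a, Sema6d and Plxnb3 were lower.

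**Figure D2:**
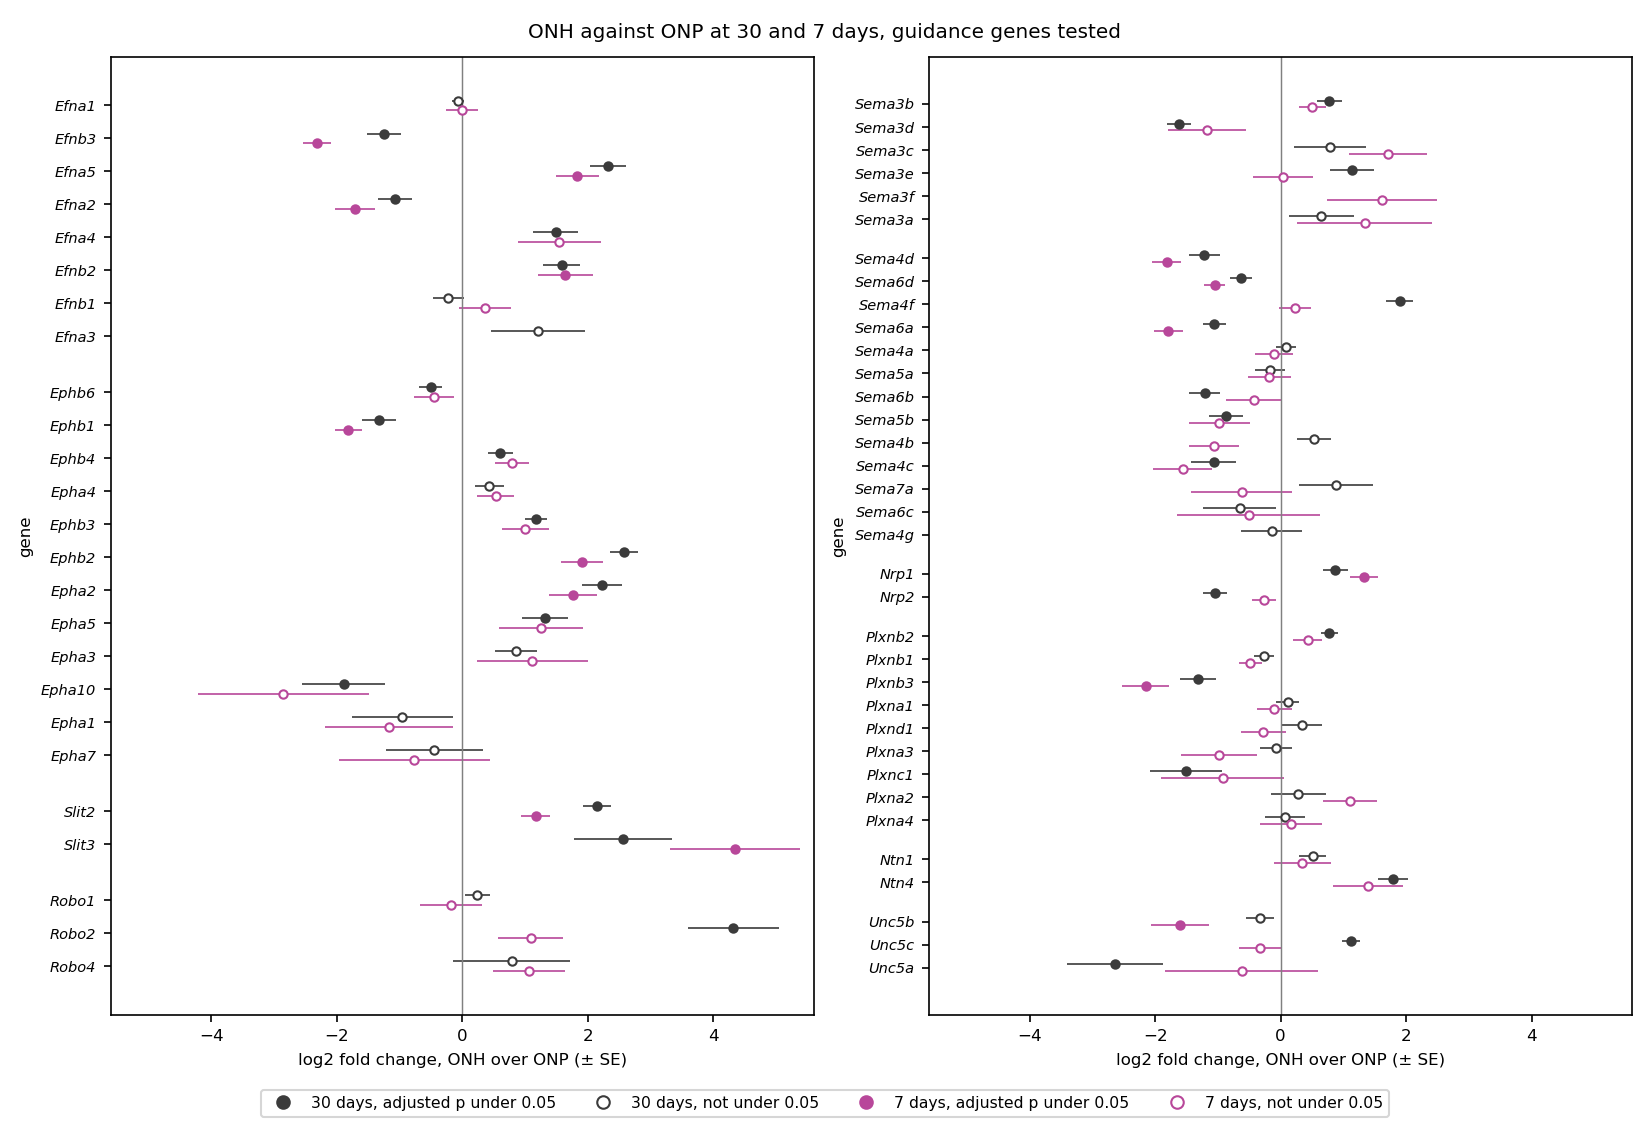
log2 fold change of ONH over ONP with its standard error (horizontal axis) for the guidance genes tested, at 30 days (black) and 7 days (purple), where filled points have an adjusted p under 0.05 by edgeR's quasi-likelihood test. Points of the 2 days lie on the same side of 0 for 49 of 57 genes. A filled point at 30 days only is seen for 20 genes, Sema4f and Unc5c among them.

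Among the ephrins, all 8 were tested at 30 days, and 3 were higher and 2 lower in ONH. Efna5, a GPI-anchored ephrin that repels retinal axons in the midbrain map, was 12.4 to 44.6 CPM (median 34.4) in ONH and 2.77 to 9.86 CPM (median 5.57) in ONP. The 7 ONH libraries all lay above the 7 ONP libraries, a 4.98-fold difference (log2FC = 2.32 ± 0.29 (SE), p.adjust 2.00e-05). At 7 days Efna5 was 10.1, 17.7, 18.7 and 21.5 CPM in ONH and 3.41, 4.31, 5.31 and 6.54 CPM in ONP, again without overlap (log2FC = 1.83 ± 0.34 (SE), p.adjust 0.00611). Efnb2, the transmembrane ephrin that turns EphB1-bearing retinal axons at the optic chiasm, was 4.53 to 14.9 CPM (median 9.29) in ONH and 1.99 to 5.81 CPM (median 2.70) in ONP at 30 days. The lowest ONH library lay below the highest ONP library (log2FC = 1.58 ± 0.30 (SE), p.adjust 5.78e-04). In the 7 day libraries it was 8.36, 8.87, 9.63 and 12.1 CPM in ONH and 1.71, 2.24, 2.56 and 6.21 CPM in ONP. Here 6 of 8 fits that each left out 1 library took its adjusted p over 0.05 (log2FC = 1.64 ± 0.44 (SE), p.adjust 0.0339). Efna4 was also called at 30 days (log2FC = 1.49, p.adjust 0.00331).

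Efnb3, a transmembrane ephrin that blocks axons at the spinal midline, went the other way. It was 31.1 to 81.9 CPM (median 41.8) in ONH and 49.1 to 185 CPM (median 108) in ONP at 30 days, and 1 low ONP library lay inside the ONH range (log2FC = -1.24 ± 0.28 (SE), p.adjust 0.00203). At 7 days the 4 ONH libraries had 22.9, 23.7, 37.3 and 38.2 CPM and the 4 ONP libraries 128, 148, 173 and 173 CPM. ONH was lower 4.99-fold without overlap (log2FC = -2.32 ± 0.23 (SE), p.adjust 2.31e-04). Efna2 had the same direction at a lower level. It was 1.90 to 6.96 CPM (median 5.68) in ONH and 7.47 to 14.1 CPM (median 8.62) in ONP at 30 days (log2FC = -1.08 ± 0.27 (SE), p.adjust 0.00462). At 7 days the values were 2.40, 3.49, 3.50 and 3.72 CPM against 9.08, 9.72, 11.97 and 13.1 CPM (log2FC = -1.71 ± 0.32 (SE), p.adjust 0.00581), with no overlap at either day. Efna1, abundant in both regions, had log2FC = -0.07 at 30 days (95% interval -0.26 to 0.13) and was not called at either day.

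The Eph receptors, the tyrosine kinases that bind ephrins, had 12 of 13 members tested at 30 days, of which 5 were higher and 3 lower in ONH. Ephb2, an EphB receptor that helps retinal axons to find the optic disc, was 11.6 to 27.2 CPM (median 18.3) in ONH and 2.52 to 5.24 CPM (median 2.97) in ONP at 30 days. ONH was higher 5.96-fold, with no overlap and the smallest adjusted p of any member (log2FC = 2.58 ± 0.22 (SE), p.adjust 6.21e-07). At 7 days it was 12.8, 13.1, 23.3 and 23.4 CPM against 3.52, 4.27, 5.26 and 6.72 CPM (log2FC = 1.90 ± 0.34 (SE), p.adjust 0.00442), again with every ONH library above every ONP library. Epha2, an epithelial receptor of ephrin-A ligands, was lower in level but split the regions as cleanly. It was 2.20 to 7.19 CPM (median 3.61) in ONH and 0.442 to 1.16 CPM (median 0.990) in ONP at 30 days (log2FC = 2.23 ± 0.32 (SE), p.adjust 7.10e-05). At 7 days the values were 6.24, 6.93, 10.04 and 11.9 CPM against 1.82, 2.32, 2.92 and 3.45 CPM (log2FC = 1.76 ± 0.38 (SE), p.adjust 0.0128). Ephb3 (log2FC = 1.18), Epha5 (log2FC = 1.32) and Ephb4 (log2FC = 0.61) were also higher in ONH at 30 days, and none of these was called at 7 days by edgeR. DESeq2 called Ephb4 at 7 days, and a single fit over all 4 groups called Ephb3 and Ephb4. The Ephb4 call was lost without ONP replicate 5 (p.adjust 0.0508) or ONH replicate 1.

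Ephb1, the receptor that marks retinal axons staying on their own side at the chiasm, was the most abundant Eph receptor per kb in ONP and was lower in ONH. It was 24.8 to 77.7 CPM (median 45.3) in ONH and 72.4 to 217 CPM (median 121) in ONP at 30 days, and 1 ONP library lay inside the ONH range (log2FC = -1.33 ± 0.28 (SE), p.adjust 0.00131). At 7 days the 4 ONH libraries had 41.5, 46.2, 60.6 and 69.2 CPM and the 4 ONP libraries 167, 185, 186 and 244 CPM, without overlap (log2FC = -1.81 ± 0.21 (SE), p.adjust 4.63e-04). The kinase-dead receptor Epha10 was scarce, at 0 to 2.81 CPM (median 0.992) in ONH and 1.21 to 10.7 CPM (median 4.09) in ONP at 30 days. ONP replicate 5 stood far above the rest (log2FC = -1.89 ± 0.66 (SE), p.adjust 0.0310, and p.adjust 0.0864 without that library). The Epha10 call was also lost without ONH replicate 2, 4 or 6 (p.adjust 0.0506, 0.0553 and 0.0553) and in a single fit over all 4 groups. Ephb6, the other kinase-dead receptor, was lower in ONH at 30 days (log2FC = -0.50, p.adjust 0.0372) and lost this call in 7 of 14 fits that each left out 1 library.

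**Figure D3:**
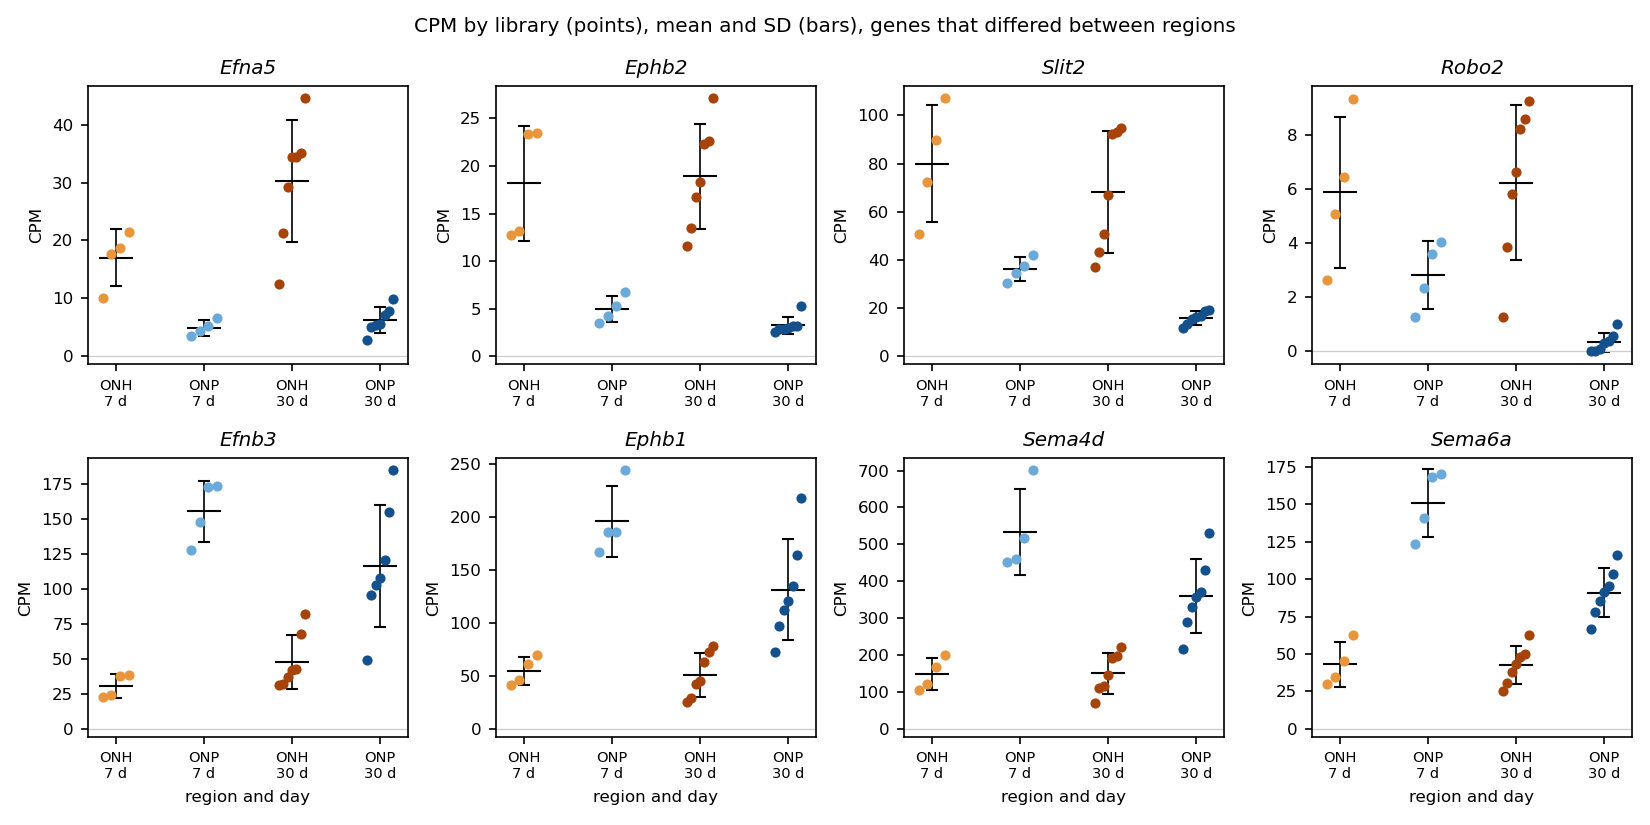
CPM in every library (points) with the group mean and SD (bars) for 4 genes higher in ONH (top row) and 4 lower in ONH (bottom row), 4 libraries per region at 7 days and 7 at 30 days. Efna5, Ephb2 and Slit2 have every ONH library above every ONP library of the same day, and Sema6a has every ONH library below.

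Of the secreted semaphorins, 5 of 7 were tested at 30 days, and 2 were higher and 1 lower in ONH. Sema3b was 524 to 991 CPM (median 720.2) in ONH and 272 to 649.9 CPM (median 452) in ONP at 30 days, overlapping ranges with a 1.71-fold difference (log2FC = 0.78 ± 0.20 (SE), p.adjust 0.00497). Sema3e, which binds Plxnd1 without a neuropilin, was 1.55 to 6.18 CPM (median 2.50) in ONH and 0.733 to 2.00 CPM (median 1.504) in ONP (log2FC = 1.14 ± 0.35 (SE), p.adjust 0.0155). Of the 7 ONH libraries 2 lay inside the ONP range. Sema3d, a class 3 member that binds neuropilins, was 4.19 to 9.52 CPM (median 5.52) in ONH and 17.5 to 27.3 CPM (median 19.4) in ONP, with no overlap at 30 days (log2FC = -1.62 ± 0.19 (SE), p.adjust 1.33e-05). At 7 days none of the 6 tested secreted semaphorins was called by edgeR, with 2 at an unadjusted p under 0.05 (28.9% of all genes were) and 1, Sema3c, called by DESeq2.

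More membrane semaphorins were lower in ONH than higher. At 30 days all 13 were tested, 1 was higher and 6 were lower in ONH, with a median log2FC of -0.63. At 7 days 3 of 12 were lower and none was higher by edgeR or by DESeq2, with 5 at an unadjusted p under 0.05. Sema4d, a plexin-B ligand that oligodendrocytes and T cells make, was 68.1 to 223 CPM (median 145) in ONH and 215 to 531 CPM (median 356) in ONP at 30 days (log2FC = -1.22 ± 0.24 (SE), p.adjust 0.00101). A single ONH library lay above the lowest ONP library. The 7 day values were 104, 122, 167 and 199 CPM in ONH and 451, 459.6, 517 and 701 CPM in ONP, lower 3.53-fold without overlap (log2FC = -1.82 ± 0.23 (SE), p.adjust 8.23e-04). Sema6a, a transmembrane ligand of plexin-A receptors, was 24.9 to 62.9 CPM (median 43.0) in ONH and 66.4 to 116 CPM (median 91.2) in ONP at 30 days (log2FC = -1.06 ± 0.18 (SE), p.adjust 3.04e-04). In the 7 day libraries it was 29.5, 34.2, 45.2 and 62.8 CPM against 123, 141, 168 and 170.5 CPM (log2FC = -1.79 ± 0.24 (SE), p.adjust 8.78e-04), and the regions did not overlap at either day. Sema6d, a plexin-A1 ligand of the chiasm midline, was lower in ONH at both days (log2FC = -0.63 and -1.05), and Sema6b (-1.21), Sema4c (-1.07) and Sema5b (-0.87) were lower by log2FC at 30 days. Without ONP replicate 5 Sema4c was not called (p.adjust 0.0611).

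Sema4f, a class 4 transmembrane semaphorin, was the 1 membrane semaphorin higher in ONH at 30 days. It was 27.9 to 52.2 CPM (median 33.7) in ONH and 5.34 to 13.5 CPM (median 11.9) in ONP at 30 days, a 3.72-fold difference with no overlap (log2FC = 1.89 ± 0.22 (SE), p.adjust 1.06e-05). At 7 days the 4 ONH libraries had 31.0, 34.2, 51.9 and 59.4 CPM and the 4 ONP libraries 30.1, 37.1, 37.2 and 49.3 CPM, which overlapped (log2FC = 0.23, 95% interval -0.27 to 0.72).

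Semaphorin receptors split within each family. Nrp1, the co-receptor for Sema3a and for VEGF-A, was 34.1 to 58.8 CPM (median 40.4) in ONH and 17.0 to 43.5 CPM (median 21.1) in ONP at 30 days. A single ONP library reached the ONH values (log2FC = 0.87 ± 0.20 (SE), p.adjust 0.00220). At 7 days it was 49.98, 53.6, 55.4 and 90.2 CPM against 21.5, 24.2, 27.3 and 27.9 CPM without overlap (log2FC = 1.33 ± 0.22 (SE), p.adjust 0.00299). Nrp2, which pairs with other class 3 semaphorins and VEGF-C, was lower in ONH at 30 days, at 24.0 to 42.2 CPM (median 32.9) against 38.2 to 106 CPM (median 66.2) (log2FC = -1.04 ± 0.19 (SE), p.adjust 4.66e-04). It was not called at 7 days (log2FC = -0.26, 95% interval -0.65 to 0.12). Among the 9 plexins, 1 was higher and 2 were lower at 30 days. Plxnb2, a receptor of class 4 semaphorins and the most abundant plexin per kb, was 128 to 208 CPM (median 166) in ONH and 77.2 to 132 CPM (median 95.8) in ONP (log2FC = 0.77 ± 0.13 (SE), p.adjust 3.08e-04), and the ranges met at 1 library. Plxnb3, a receptor for Sema5a found in oligodendrocyte lineage cells, was 5.43 to 31.8 CPM (median 15.1) in ONH and 26.8 to 60.1 CPM (median 41.2) in ONP at 30 days (log2FC = -1.31 ± 0.29 (SE), p.adjust 0.00191). The 7 day values were 8.21, 9.50, 17.4 and 29.0 CPM against 55.7, 65.9, 77.9 and 89.5 CPM, lower 4.44-fold with no overlap (log2FC = -2.15 ± 0.38 (SE), p.adjust 0.00422). Plxnc1, the Sema7a receptor, was 0.559 to 13.6 CPM (median 2.44) in ONH and 5.10 to 26.7 CPM (median 7.22) in ONP at 30 days (log2FC = -1.51 ± 0.57 (SE), p.adjust 0.0428). The highest library of both regions was replicate 1, and the call was lost in 9 of 14 fits that each left out 1 library.

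Slit2, Slit3 and their receptor Robo2 were higher in ONH at 30 days. Slit2, a secreted repellent that keeps retinal axons to their path, was 36.9 to 94.8 CPM (median 66.9) in ONH and 11.5 to 19.1 CPM (median 16.2) in ONP at 30 days, a 4.42-fold difference without overlap (log2FC = 2.14 ± 0.22 (SE), p.adjust 3.81e-06). In the 7 day libraries it was 50.6, 72.4, 89.6 and 107 CPM in ONH and 30.3, 34.7, 37.4 and 42.1 CPM in ONP, 2.25-fold and also without overlap (log2FC = 1.17 ± 0.23 (SE), p.adjust 0.00801). Slit3 was scarce, at 0.590 to 6.02 CPM (median 1.81) in ONH and 0 to 1.16 CPM (median 0.0885) in ONP at 30 days (log2FC = 2.56 ± 0.78 (SE), p.adjust 0.0153). At 7 days it was 2.08, 4.26, 5.75 and 5.85 CPM in ONH and 0, 0, 0.207 and 0.614 CPM in ONP (log2FC = 4.34 ± 1.03 (SE), p.adjust 0.0197), or p.adjust 0.0682 without ONP library 5. Of the 11 ONP libraries of both days 6 held at most 3 counts of it. Robo2, the main Slit receptor of retinal ganglion cell axons, was 1.26 to 9.25 CPM (median 6.60) in ONH and 0 to 0.975 CPM (median 0.282) in ONP at 30 days. These were 32 to 211 counts per library in ONH and 0 to 21 in ONP, without overlap (log2FC = 4.32 ± 0.72 (SE), p.adjust 2.42e-04). The 7 day values were 2.63, 5.08, 6.42 and 9.34 CPM against 1.23, 2.32, 3.58 and 4.02 CPM, and the gene was not called (log2FC = 1.09, p.adjust 0.196). Robo1 was detected in both regions and not called at either day (log2FC = 0.24 at 30 days).

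Among netrins and their receptors, Ntn4, a laminin-like netrin of basement membranes, was 5.10 to 9.04 CPM (median 5.50) in ONH and 1.001 to 2.53 CPM (median 2.03) in ONP at 30 days, with no overlap (log2FC = 1.79 ± 0.24 (SE), p.adjust 3.46e-05). Ntn1, the netrin that draws retinal axons into the optic disc during development, was not called (log2FC = 0.51, p.adjust 0.0654). Unc5c, a repulsive netrin receptor, was 21.95 to 32.8 CPM (median 25.8) in ONH and 11.02 to 19.0 CPM (median 11.6) in ONP at 30 days without overlap (log2FC = 1.12 ± 0.14 (SE), p.adjust 2.55e-05). In the 7 day libraries it was 9.05, 18.6, 23.3 and 25.3 CPM in ONH and 18.8, 19.2, 26.0 and 34.3 CPM in ONP, where the ranges overlapped (log2FC = -0.33, 95% interval -0.99 to 0.34). Unc5a was near the detection limit in ONH at 30 days, at 0 to 1.205 CPM (median 0.0863) against 0.789 to 4.39 CPM (median 1.79) in ONP (log2FC = -2.64 ± 0.76 (SE), p.adjust 0.0116). Unc5b, which is also a vessel receptor, was lower in ONH at 7 days, at 12.7, 19.3, 25.0 and 68.8 CPM against 86.5, 87.8, 109.9 and 111 CPM (log2FC = -1.60 ± 0.46 (SE), p.adjust 0.0421). This call was lost in 7 of 8 fits that each left out 1 library. Dcc, the attractive netrin receptor, had 0 to 7 counts per library in the 30 day ONH and 8 to 30 in ONP. In the edgeR fit of these 2 groups Dcc did not pass the filter on low counts, and DESeq2, run without that filter, called it lower in ONH. With no filter and in the fit over all 4 groups edgeR called Dcc too. It was also called in each fit that left out 1 ONH library, and without ONP replicate 3, 4, 5 or 6.

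The remaining members were not called between regions at 30 days by edgeR. These 25 were Efna1, Efna3, Efnb1, Epha1, Epha3, Epha4, Epha7, Sema3a, Sema3c, Sema4a, Sema4b, Sema4g, Sema5a, Sema6c, Sema7a, Plxna1, Plxna2, Plxna3, Plxna4, Plxnb1, Plxnd1, Robo1, Robo4, Ntn1 and Unc5b, with log2FC from -0.96 for Epha1 to 1.21 for Efna3. Epha3 was called by DESeq2, limma-voom and limma on the deposited log2 values. Dcc, Epha8, Ntn5, Robo3, Sema3f, Sema3g, Slit1 and Unc5d, 8 members, were too scarce to pass the filter on low counts. Of these Dcc and Slit1 were called by DESeq2, with no filter and in the fit over all 4 groups, and Robo3 was called with no filter. The kit does not mark strand, so where exons overlap a gene on the other strand the reads cannot be told apart. In Efna4 and Sema4c this was 10.5% and 7.27% of the exon length. The other genes had 7 and 138 counts in all, beside 819 of Efna4 and 2545 of Sema4c. Unc5a (458 counts) shared 0.816% with Hk3 (2246 counts). Of the members not called or not tested, Epha1 (549 counts) shared 6.01% with Zyx (27025 counts). Ntn5, Efna3 and Plxna1 shared 23.4%, 14.1% and 10.7% with another gene.

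The oligodendrocyte markers also differed between the regions. Of these 10 markers 8 were lower in ONH at 30 days and 10 at 7 days, when their summed levels did not overlap between the regions. With a score of these markers as a covariate 20 members were called at 30 days, of which 18 were among the 34. The calls over all genes went down too, from 6322 (41.8%) to 3695 (24.4%). The 16 lost were Efna2, Efna4, Efnb3, Epha5, Epha10, Ephb1, Ephb4, Nrp1, Plxnb3, Plxnc1, Sema3b, Sema3e, Sema4c, Sema4d, Slit3 and Unc5a. With the covariate the log2FC was -0.27 for Ephb1, -0.31 for Efnb3, -0.35 for Sema4d and -0.46 for Plxnb3. For Ephb4 and Sema3b, higher in ONH, it was 0.09 and 0.21 (0.61 and 0.78 without the covariate). It was 0.84 for Nrp1 and 2.47 for Slit3, close to their values without the covariate. For Sema6d, Sema5b and Ephb6, lower in ONH, it was -1.06, -1.41 and -0.85. These were larger in size than without the covariate (-0.63, -0.87 and -0.50). The 18 kept were Efna5, Efnb2, Ephb2, Ephb3, Ephb6, Epha2, Slit2, Robo2, Sema4f, Sema3d, Sema5b, Sema6a, Sema6b, Sema6d, Ntn4, Unc5c, Nrp2 and Plxnb2. At 7 days no member was called by edgeR with that covariate (70 of 14752 genes were, or 0.475%, and 1676 had an unadjusted p under 0.05), and region and oligodendrocyte signal cannot be told apart there. Mural markers were higher in ONH in 3 of 5 tested at 30 days and 2 of 6 at 7 days, with sums of 202 to 839 CPM in ONH and 102 to 230.2 CPM in ONP. Photoreceptor markers (6 of 6 and 5 of 6), pigment cell markers (5 of 5 at both days) and ganglion cell or neuron markers (3 of 8 and 4 of 8) were higher in ONH too. Of 7 endothelial markers Emcn and Kdr were higher in ONH at 30 days and Kdr at 7 days. Of 7 fibroblast and meningeal markers Col1a2 was higher at both days and Pdgfra lower at 30 days. Of 8 microglia and macrophage markers, with sums of 92.2 to 2298 CPM over all libraries, P2ry12 was lower at 30 days and none was called at 7 days. At 30 days 1 mural and 1 neuron marker were lower. Markers of oligodendrocyte precursors were lower in ONH in 5 of 6 at 30 days and 4 of 6 at 7 days, and their sums did not overlap (330.5 to 706 CPM in ONH and 899.6 to 1533 CPM in ONP at 30 days, 367 to 534 and 1519 to 1977 CPM at 7 days). Of the 10 astrocyte markers Aqp4, Fgfr3, Gfap and Slc1a2 were lower in ONH at 30 days and S100b was higher, and Aqp4 and Slc1a2 were lower at 7 days. The part of these markers, other than those of oligodendrocytes, in the region calls was not tested. Without the 3 libraries over 1000 CPM of photoreceptor markers 32 members were called at 30 days and 19 at 7 days. Over all genes this fit called 6001 of 15292 at 30 days and 2437 of 15882 at 7 days. At 7 days it held ONH libraries 1 and 3 only, beside all ONP libraries. There Efnb2 was lost, and Dcc, Ephb3, Sema3b, Sema3d and Sema4c were gained.

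The second question was which guidance genes differ between 30 and 7 days after injection within a region. In ONP 59 members were tested and 12 were called, 1 higher and 11 lower at 30 days, where 17.0% of all 15491 genes tested were called (7.82% higher and 9.21% lower). The median log2FC (30 over 7 days) of the tested members was -0.35, beside -0.01 for all genes. By role, 5 of 29 ligands tested fell and none rose (10 had an unadjusted p under 0.05, as did 32.6% of all genes, and none rose by DESeq2), and of 30 receptors tested 6 fell and 1 rose. None of the 7 ephrins tested was called by edgeR or by DESeq2, and none had an unadjusted p under 0.05.

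Sema4f had the largest fall among the ligands called. It was 30.1, 37.1, 37.2 and 49.3 CPM in ONP at 7 days and 5.34 to 13.5 CPM (median 11.9) at 30 days, lower 3.87-fold with no overlap (log2FC = -1.95 ± 0.24 (SE), p.adjust 7.01e-04). Slit2 fell in the same way, from 30.3, 34.7, 37.4 and 42.1 CPM at 7 days to 11.5 to 19.1 CPM (median 16.2) at 30 days (log2FC = -1.22 ± 0.15 (SE), p.adjust 5.98e-04). Sema6a, at 123, 141, 168 and 170.5 CPM at 7 days and 66.4 to 116 CPM (median 91.2) at 30 days, fell by less but also without overlap (log2FC = -0.76 ± 0.14 (SE), p.adjust 0.00512). Sema4b, a class 4 semaphorin, was 5.44, 6.02, 6.46 and 7.99 CPM at 7 days and 2.00 to 4.51 CPM (median 2.44) at 30 days (log2FC = -1.13 ± 0.28 (SE), p.adjust 0.0176). Sema3e was 2.73, 3.18, 3.48 and 5.18 CPM at 7 days and 0.733 to 2.00 CPM (median 1.504) at 30 days (log2FC = -1.42 ± 0.31 (SE), p.adjust 0.00974). Every 30 day library was below every 7 day library for both.

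Among the receptors, Unc5b was 86.5, 87.8, 109.9 and 111 CPM in ONP at 7 days and 36.4 to 80.0 CPM (median 46.4) at 30 days (log2FC = -1.03 ± 0.19 (SE), p.adjust 0.00501). Unc5c was 18.8, 19.2, 26.0 and 34.3 CPM at 7 days and 11.02 to 19.0 CPM (median 11.6) at 30 days (log2FC = -0.99 ± 0.20 (SE), p.adjust 0.00617). The days did not overlap for Unc5b, and for Unc5c a single 30 day library, ONP replicate 5, reached the 7 day values. Epha2 fell from 1.82, 2.32, 2.92 and 3.45 CPM to 0.442 to 1.16 CPM (median 0.990) (log2FC = -1.61 ± 0.33 (SE), p.adjust 0.00774). Plxnb3 fell from 55.7, 65.9, 77.9 and 89.5 CPM to 26.8 to 60.1 CPM (median 41.2) (log2FC = -0.82 ± 0.20 (SE), p.adjust 0.0153, and 0.0616 without 7 day library 6). Robo2 fell from 1.23, 2.32, 3.58 and 4.02 CPM to 0 to 0.975 CPM (median 0.282). It was lower 8.89-fold without overlap, at 0 to 21 counts per 30 day library (log2FC = -3.15 ± 0.85 (SE), p.adjust 0.0250, and 0.0608 or 0.0602 without 7 day library 2 or 5). Robo4, a Robo of endothelial cells, was 2.61, 3.39, 4.18 and 4.58 CPM at 7 days and 0.0432 to 2.28 CPM (median 0.486) at 30 days (log2FC = -2.41 ± 0.71 (SE), p.adjust 0.0369). The call was lost in 9 of 11 fits that each left out 1 library. Nrp2 was the member that rose, from 28.8, 31.2, 31.3 and 31.8 CPM at 7 days to 38.2 to 106 CPM (median 66.2) at 30 days, 2.17-fold with no overlap (log2FC = 1.12 ± 0.22 (SE), p.adjust 0.00641).

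**Figure D4:**
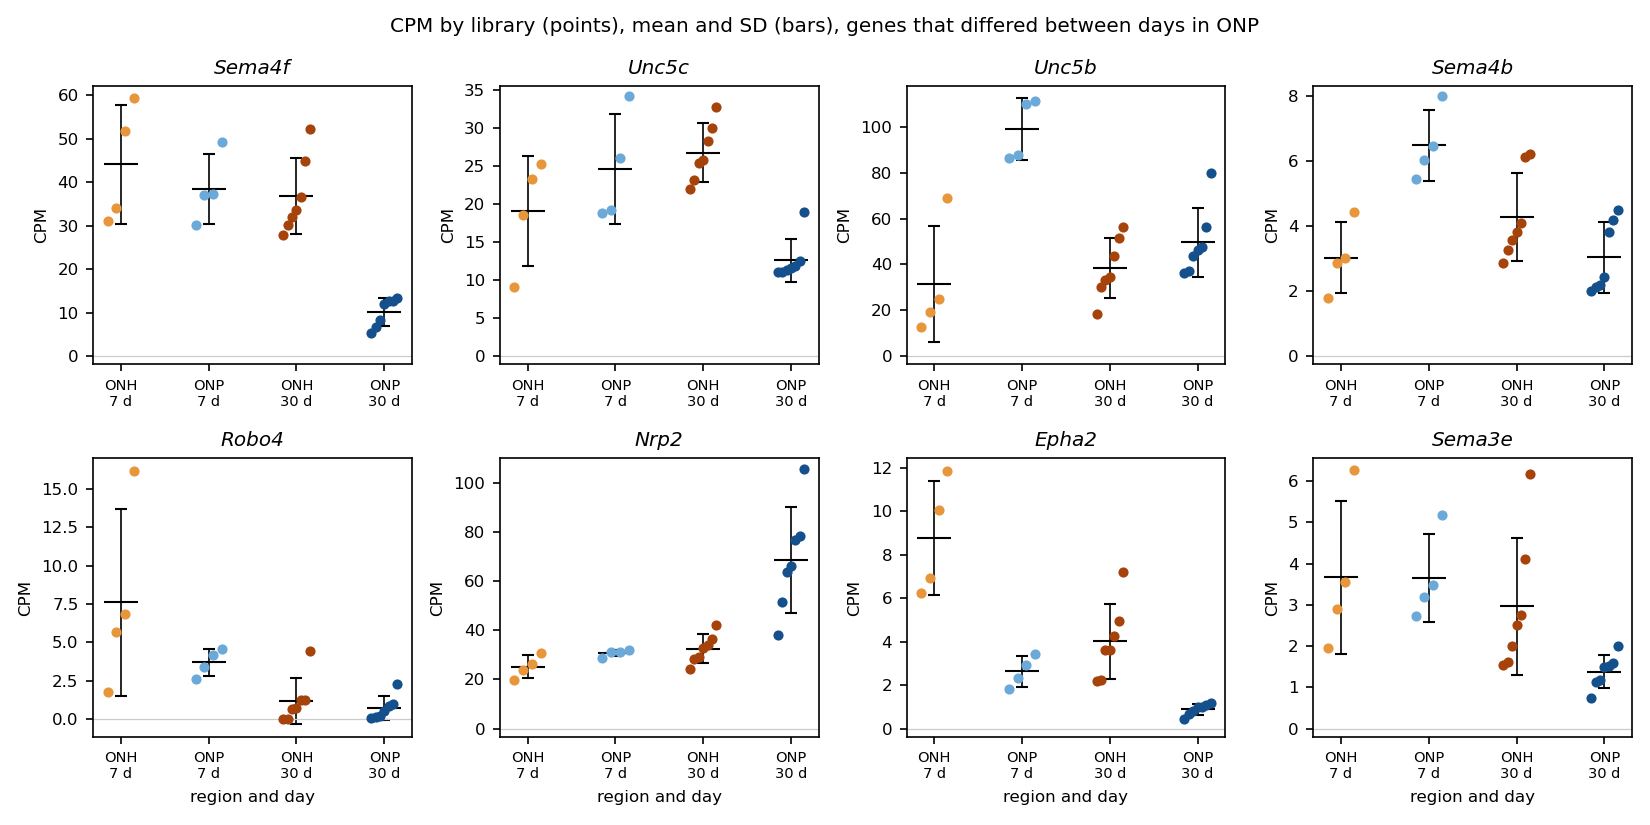
CPM in every library (points) with the group mean and SD (bars) for 8 genes called between 30 and 7 days in ONP, with 4 libraries per region at 7 days and 7 at 30 days. In ONP, Sema4f goes from 30.1 to 49.3 CPM at 7 days to 5.34 to 13.5 CPM at 30 days while the ONH points of both days overlap, and Nrp2 is the gene that is higher at 30 days.

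Cell markers moved between the days in ONP as well. Oligodendrocyte markers fell in 8 of 10 (81039 to 108852 CPM at 7 days and 25674 to 84787 CPM at 30 days), and endothelial markers fell in 4 of 7 (86.7 to 118 CPM and 7.49 to 73.8 CPM). With the oligodendrocyte score as a covariate 4 members were called, and 2.77% of all genes in place of 17.0%. Of the 4, Sema4f, Slit2 and Sema4b were among the 12 and Sema3b was gained. Apart from replicate 5 (84787 CPM), every 30 day ONP library lay below the 7 day range of the oligodendrocyte sum. Day and oligodendrocyte signal can thus hardly be told apart in ONP. The neuron markers Nefh, Nefl and Nefm fell and Sncg rose (of 8 tested, with sums of 30.3 to 50.6 CPM at 7 days and 19.3 to 39.8 CPM at 30 days), and the mural markers Acta2 and Rgs5 fell (of 5 tested, 118 to 192 CPM and 102 to 230.2 CPM). The part of the endothelial, neuron and mural signal in the falls of the members was not tested.

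In ONH no member was called between 30 and 7 days by edgeR among 60 tested, where 0.0% of all 15668 genes tested were called. DESeq2 called 450 genes and limma-voom none, and no member was called by these or any other fit. An unadjusted p under 0.05 was found for 10 members (13.9% of all genes). The 3 smallest were those of Epha2 (log2FC = -1.12, p.adjust 0.218), Sema6b (log2FC = -1.11, p.adjust 0.252) and Robo4 (log2FC = -2.67, p.adjust 0.277). Epha2 was 6.24, 6.93, 10.04 and 11.9 CPM in ONH at 7 days and 2.20 to 7.19 CPM (median 3.61) at 30 days. Sema6b was 5.21, 5.73, 6.02 and 17.2 CPM and 2.32 to 5.62 CPM (median 4.03), and Robo4 1.76, 5.69, 6.82 and 16.2 CPM and 0 to 4.40 CPM (median 0.691). For all 3 the ranges of the days overlapped.

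Whether the 30 against 7 day change itself differed between the regions was tested as an interaction over all 22 libraries. Of 63 members tested 2 were called, Sema4f and Unc5c, where 0.543% of all 16748 genes tested were called (0.149% higher and 0.394% lower, as ONP minus ONH). Sema4f changed by log2FC = -0.25 in ONH and -1.95 in ONP, a difference of -1.69 ± 0.34 (SE) with p.adjust 0.0280. Unc5c changed by log2FC = 0.49 in ONH and -0.99 in ONP, a difference of -1.48 ± 0.33 (SE) with p.adjust 0.0388. The Sema4f call was lost in 6 of 22 fits that each left out 1 library and the Unc5c call in 18. Without the 3 libraries high in photoreceptor markers Sema4f was lost and Unc5b was gained, where 441 of all 17717 genes tested were called. For the other members called in ONP the difference was not called by edgeR. Robo2 had -3.25 ± 0.99 (p.adjust 0.143) and Sema4b -1.62 ± 0.44 (p.adjust 0.0903), and DESeq2 called both. Slit2 had -1.0 ± 0.34 (p.adjust 0.193) and Nrp2 0.75 ± 0.29 (p.adjust 0.265). The ONP change and the region difference at 30 days rest on the same 7 ONP libraries, so for Sema4f, Unc5c, Slit2, Robo2 and Nrp2 they are not separate evidence.

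**Figure D5:**
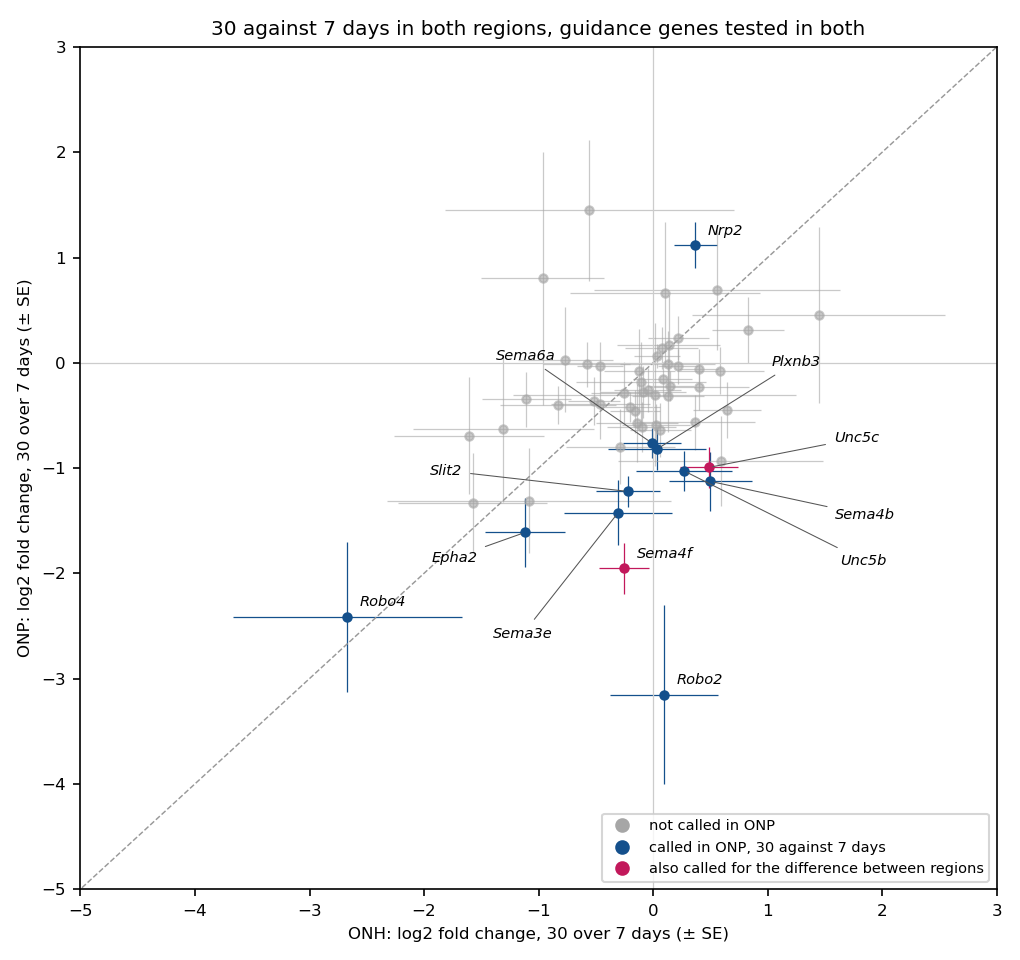
log2 fold change of 30 over 7 days in ONP (vertical axis) against ONH (horizontal axis), with standard errors, for the guidance genes tested in both regions, where the dashed line marks equal change. The labelled genes were called in ONP (11 lower and 1 higher) and lie mostly near 0 on the ONH axis, with Robo4 and Epha2 nearer to the dashed line.

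Sema4f, Unc5c and Slit2 were the members with the interaction call or the smallest adjusted p over the days in ONP, and their promoters are shown for that reason. Each window runs from 250 bases before to 50 bases after a RefSeq transcript start on GRCm38.p6, 5′ to 3′ on the gene's strand, and capitals mark the motifs found. The windows are chr6:82939720-82940019 on the minus strand for Sema4f, chr3:141465314-141465613 on the plus strand for Unc5c and chr5:47982905-47983204 on the plus strand for Slit2.
Sema4f: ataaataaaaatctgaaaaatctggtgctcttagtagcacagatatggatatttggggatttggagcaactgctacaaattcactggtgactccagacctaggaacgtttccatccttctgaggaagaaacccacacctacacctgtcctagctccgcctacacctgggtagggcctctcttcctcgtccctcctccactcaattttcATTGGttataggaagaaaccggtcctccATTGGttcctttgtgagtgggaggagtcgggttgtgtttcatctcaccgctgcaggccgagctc
Unc5c: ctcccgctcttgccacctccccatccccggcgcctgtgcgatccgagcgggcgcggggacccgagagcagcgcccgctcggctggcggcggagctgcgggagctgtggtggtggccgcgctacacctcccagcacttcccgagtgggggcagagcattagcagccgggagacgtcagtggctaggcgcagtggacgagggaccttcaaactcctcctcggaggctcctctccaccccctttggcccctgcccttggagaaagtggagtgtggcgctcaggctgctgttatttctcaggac
Slit2: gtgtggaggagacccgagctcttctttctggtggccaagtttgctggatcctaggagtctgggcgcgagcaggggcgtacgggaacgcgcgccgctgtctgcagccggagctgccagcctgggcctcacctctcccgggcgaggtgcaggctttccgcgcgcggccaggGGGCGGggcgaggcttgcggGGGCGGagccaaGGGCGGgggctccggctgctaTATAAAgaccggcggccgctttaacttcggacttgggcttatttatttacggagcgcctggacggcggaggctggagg
The motifs searched on both strands were GGGCGG, the GC box bound by SP factors, TATAAA, the TATA box, CCAAT, the box bound by nuclear factor Y, and TGANTCA, the site of the AP-1 factors with N for any base. The Slit2 window held 3 GC boxes and 1 TATA box and had 68.0% GC with 30 CpG. The Sema4f window held 2 boxes of nuclear factor Y, on the other strand and so written ATTGG, and had 48.7% GC with 7 CpG. The Unc5c window held none of these letters and had 68.3% GC with 24 CpG. Over 73 promoter windows of the 57 members with an entry, the GC box was in 69.9%, beside 35.7% of all 32851 windows. The TATA box was in 2.74% (13.6% of all), the box of nuclear factor Y in 27.4% (37.4% of all) and the AP-1 site in 4.11% (7.81% of all). Several windows can belong to 1 gene, and a match describes the letters and not a bound site.

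Other genes of the pathway were counted from 2 lists. Over all genes tested, 41.8% were called between the regions at 30 days and 13.2% at 7 days. Over the days 17.0% were called in ONP and 0.0% in ONH. Of 26 other guidance cues and co-receptors 25 were tested at 30 days, and 4 were higher and 14 lower in ONH, with a median log2FC of -0.62. The adhesion molecule Chl1 was higher in ONH at both days (log2FC = 1.90 and 1.13) and Kdr, the VEGF receptor that also marks vessels, was too (log2FC = 1.84 and 1.98). Dscam (log2FC = -1.49 and -3.0), the receptor phosphatase Ptprd (log2FC = -1.53 and -2.63), the netrin and RGM receptor Neo1 (log2FC = -0.61 and -1.5) and Cntn2 (log2FC = -0.91 and -2.19) were lower at both days. At 7 days 2 of this list were higher and 8 lower. In ONP 5 of 25 fell between 7 and 30 days (Chl1, Cntn2, Neo1, Ptprd and Ptprf) and none rose by edgeR. Of 51 intracellular mediators 10 were higher and 11 lower in ONH at 30 days, 3 and 4 at 7 days, and 3 rose and 5 fell in ONP. These counts are close to the shares over all genes, as is the ONP count of the first list. The kinase Pak1 was lower in ONH at both days (log2FC = -0.74 and -1.49) and fell in ONP (log2FC = -0.78), while Rock1 was higher in ONH at 30 days (log2FC = 0.52) and fell in ONP (log2FC = -0.66). In ONH none of either list was called over the days by edgeR.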

How the data were processed

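Ribosome-bound mRNA from 22 libraries was read as 150 base pairs from both ends. Per the submitters' notes and methods, the authors processed reads with bcbio-nextgen 1.2.8-1c563f1, aligned with STAR 2.6.1d to mm10, estimated counts with Salmon 0.14.2 on Ensembl 94 and used R 4.1.0 with DESeq2 1.34.0. The deposited tables hold rounded expected counts per gene and variance stabilized values on a log2 scale. All libraries were prepared and sequenced together, and no batch is named. The 7 day columns carry their own numbers (1, 3, 5 and 6 in ONH, 1, 2, 5 and 6 in ONP), which are not the labels' replicate numbers, so they were assigned to a group only.

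Here the expected counts were fitted over all genes with edgeR 4.0.16 (R 4.3.3), filterByExpr, TMM scaling and the quasi-likelihood test, Benjamini-Hochberg adjusted over all genes tested, threshold 0.05 with no fold cutoff, each pair of groups alone, and all 4 groups for the interaction. Per-library CPM used TMM factors over all 22 libraries. Exon lengths were the union of GENCODE M21 exons, and all 67 genes matched. Per the methods the ONH and ONP of a pool came from the same mice, but no source used here says that equal replicate numbers mark a pool, so the regions were tested as independent and the number as a block was an alternative. DESeq2 1.42.0, limma 3.58.1, other scalings and filters, and fits without each library were the other alternatives. P-values measure the spread between pools of mice. The members, gene lists and tests were chosen with earlier results of these data known. Within each family the members with values by library were the up to 2 higher and 2 lower with the smallest adjusted p, and every member called over the days.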

Additional observations from a re-analysis of the deposited data

Results flagged for a closer look

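Single libraries stood far from the rest of their group in 15 of 116 groups examined (29 members in 4 groups each). A library was named where its gap to the nearest other library, as a share of the whole range, was above Dixon's 95% critical value (0.829 for 4 and 0.568 for 7 libraries). For normally distributed values chance passes it in about 1 in 20 groups. The rule was applied to CPM without a log, so that rate need not hold here, and every library named was the highest of its group. Genes of 1 library are not independent, so the number of such groups was not tested. At 30 days in ONP, replicate 5 was the highest library for Epha10 (10.7 CPM), Robo4 (2.28 CPM), Sema3d (27.3 CPM) and Unc5c (19.0 CPM), replicate 4 for Efnb2 (5.81 CPM), replicate 3 for Ephb2 (5.24 CPM) and replicate 1 for Plxnc1 (26.7 CPM). At 30 days in ONH, replicate 1 was the highest for Plxnc1 (13.6 CPM), replicate 4 for Robo4 (4.40 CPM), replicate 3 for Slit3 (6.02 CPM) and replicate 6 for Unc5a (1.2 CPM). At 7 days the highest ONH library was library 6 for Nrp1 (90.2 CPM), library 5 for Plxnb2 (218 CPM) and library 3 for Sema6b (17.2 CPM), and in ONP it was library 5 for Sema6b (18.3 CPM). ONH library 6 was also the library with the highest sum of photoreceptor markers (5809 CPM), and its part in the Nrp1 value was not tested.

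The change from 7 to 30 days was called as different between the regions, by the interaction test, for Sema4f (ONP minus ONH -1.69 on the log2 scale) and Unc5c (-1.48). Both calls depended on single libraries, that of Unc5c in most of the fits that left out 1. The Unc5c call was also lost with library size only, with no filter and with replicate blocks. The Sema4f call was also lost without the libraries high in photoreceptor markers.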

How the results depend on the processing

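At 30 days 31 to 37 members were called between regions with the other tools, scalings and filters, at 7 days 15 to 22, over the days in ONP 9 to 17 and in ONH 0. Over all genes these fits called 5809 to 7270, 1861 to 3785, 1189 to 3683 and 0 to 450 genes. The fits above called 6322, 1940, 2638 and 0. Leaving out 1 library gave 32 to 35, 12 to 16, 10 to 17 and 0 members. Over all genes it gave 5671 to 6416, 1102 to 2379, 1439 to 3214 and 0 to 167 genes. The interaction gave 4 members by DESeq2 (Robo2 and Sema4b besides), 1 with library size only and 1 with no filter (Sema4f, without Unc5c), and 0 to 3 without 1 library. Over all genes these fits called 409, 69, 50 and 22 to 318 genes, beside 91 in the fit above. The oligodendrocyte score, an alternative chosen after seeing the data as was leaving out libraries high in photoreceptor markers, gave 20 members at 30 days, 0 at 7 days and 4 over the days in ONP. At 7 days it turned the direction of Ephb2 (log2FC -0.24), Slit2 (-0.23), Sema4d (0.26), Plxnb3 (1.33) and Unc5b (1.57), none of them called, and the score and region do not overlap there. With library sizes alone as scaling, the median over all genes went from 0.07 to 0.18 at 7 days, from -0.01 to 0.11 in ONP and from 0.01 to 0.16 for the interaction, and the member calls over the days in ONP were the same 12 genes.

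The replicate numbers at 30 days may pair ONH and ONP pools, but deviations of same-numbered libraries correlated at 0.0767 to 0.471, and 3 of 7 ONH libraries correlated best with their own number. With the number as a replicate block 37 members were called at 30 days (33 of the 34, without Sema3e, p.adjust 0.0518, and with Efna3, Epha3, Epha4 and Ntn1, p.adjust 0.0380, 0.0220, 0.0462 and 0.0374). The calls over all genes went from 6322 to 6717 with this block. At 7 days 3 column numbers occur in both regions (correlations 0.0117 to 0.146). With the column number as a replicate block, an alternative chosen after seeing the data, 9 members were called, all among the 15 (without Efna2, Efnb2, Epha2, Slit2, Slit3 and Unc5b), and the calls over all genes went from 1940 to 860. With such blocks within each day the interaction gave 1 member, Sema4f, without Unc5c, where 71 of all genes were called. No paired analysis was possible between the days because they are different mice.

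Single libraries decided some calls. Without 30 day ONP replicate 5, Sema4c (p.adjust 0.0611) and Ephb4 (0.0508) were lost, and Ephb4 also without ONH replicate 1 (just over 0.05). Without 7 day ONP library 5, Slit3 between regions (0.0682) and Robo2 over the days (0.0602) were lost, Robo2 also without library 2 (0.0608) and Plxnb3 over the days without library 6 (0.0616). The Sema4f interaction had p.adjust up to 0.0859 (without 7 day ONP library 1). Of 1496 other comparisons of a value with its alternatives 1356 kept direction and side of the threshold, 131 lost the threshold, 5 changed direction and 4 (the Sema3b level per kb, 128 to 240 CPM per kb with the longest transcript as length) moved by more than the SD. With 4 pools a group at 7 days, genes of low count such as Slit3 and Robo4 are the least precise.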
